A study of Mus musculus with 4 samples.

Results

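Outside the Il4, Il5, Il13 and Il21 loci, T-helper 2 (Th2) cells and other effector T cells transcribe a further set of cytokine genes, and 9 of these are described here. They are Il9, Il10, Il24, Lta, Tnf, Ltb, Csf2, Il3 and Areg, found by symbol among the 50600 genes of the count files. They were chosen by name for what they encode, with earlier results of these data known. The libraries came from Mus musculus of strain C57BL/6NJ and were made from Th2 primary cells, the CD4 T cells that drive type 2 immunity. Per the labels and file headers, the cells came from a CD4 T cell differentiation protocol, with 72 h and a sort named in the headers, and no genotype, sex or age was given. The 4 libraries, called biological replicates 1 to 4, formed a single group, so genes can be compared inside a library and libraries with each other, but no conditions. Each library had its own biosample entry but all had the same donor entry, so the labels do not say how far they came from separate animals, and p-values measure only the spread between these libraries. Total RNA-seq is the assay name in the labels, although the linked protocol for the libraries carries poly(A) RNA in its name.

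Effector T cells release cytokines when their antigen receptor is engaged, and the cytokine genes are switched on together by NFAT, AP-1 and NF-kappa B and then separately by lineage factors such as GATA3, IRF4 and BATF. IL-9 acts on mast cells and epithelium, IL-10 restrains inflammation, IL-24 is an IL-10 family cytokine that acts on epithelium, and IL-3 and GM-CSF (Csf2) feed the growth of myeloid cells. Lymphotoxin alpha (Lta), TNF (Tnf) and lymphotoxin beta (Ltb) are TNF family ligands encoded side by side, and amphiregulin (Areg) is a ligand of the EGF receptor made by type 2 lymphocytes in tissue repair.

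The deposited values were raw fragment counts on the annotated strand of each gene, and the libraries held 1274431 to 1857433 counts. At this depth 3 counts, the one-sided 95% limit that a count of 0 allows, correspond to 1.62 to 2.35 counts per 1000000 (CPM). The intervals below are two-sided, and they and this limit cover counting error only. Genes with no exon opposite an exon of another gene held 16.4%, 8.54%, 9.14% and 20.1% of the counts in replicates 1 to 4. Most counts therefore lay in genes with such an exon, and a level below is a count on the annotated strand, not an mRNA level. In such bulk samples, fewer cells of a type and less RNA per cell cannot be told apart. T cell markers were present: Cd3d, Cd3e, Cd3g, Cd4 and Trac reached a mean of at least 1 TPM (transcripts per 1000000, a level per length of exon) in 5 of 5 cases. All 6 mast cell and basophil markers were at 0 counts in every library, as were 4 of 5 granulocyte, 4 of 5 CD8 T and natural killer, 3 of 5 macrophage and dendritic cell and 2 of 4 B cell markers. Summed CPM ranged from 0 to 2.15 for the granulocyte markers, from 0 to 1.08 for the CD8 T and natural killer markers and from 1.57 to 22.1 for the B cell markers. The macrophage sum of 411 to 480 CPM came mostly from Csf1r, which shares 871 bp of exon with a gene on the other strand. Cd68, the other macrophage marker with counts, has no opposite exon and had 16, 11, 33 and 0 counts in replicates 1 to 4, a mean of 10.9 ± 11.1 TPM (SD, n = 4).

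All 9 cytokine genes had counts, and on their annotated strand 6 of them stood high. Lta, Il9 and Il10 had mean levels of 54.7, 46.6 and 33.8 TPM, Ltb and Il24 of 21.9 and 21.05 TPM and Il3 of 15.5 TPM. Csf2, Areg and Tnf were low, at 4.28, 3.30 and 3.26 TPM. A mean of at least 1 TPM was reached by 9 of the 9, against 38.5% of 21764 protein-coding genes. Because the 9 were chosen with earlier results of these data known, this share is only a description of them. For scale, the Th2 genes Il13, Il4 and Il5 had 97.8 ± 83.6, 68.2 ± 3.31 and 5.27 ± 5.73 TPM (SD, n = 4). Of these, Il5 shares 417 bp of exon with a gene on the other strand and had 6, 7, 1 and 17 counts in replicates 1 to 4. Among 8339 protein-coding genes with a count and no opposite exon, whose median was 1.79 TPM, Lta stood above 98.1%, Il9 above 97.8%, Il10 above 96.8%, Ltb above 94.9%, Il24 above 94.7% and Il3 above 92.3%. Csf2, which does have an opposite exon, stood above 72.4%, Areg above 66.1% and Tnf above 65.8% of them. Together the 9 genes held 250, 207, 134 and 337 counts in replicates 1 to 4, which is 0.0140%, 0.0111%, 0.00927% and 0.0264% of the library.

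**Figure D1:**
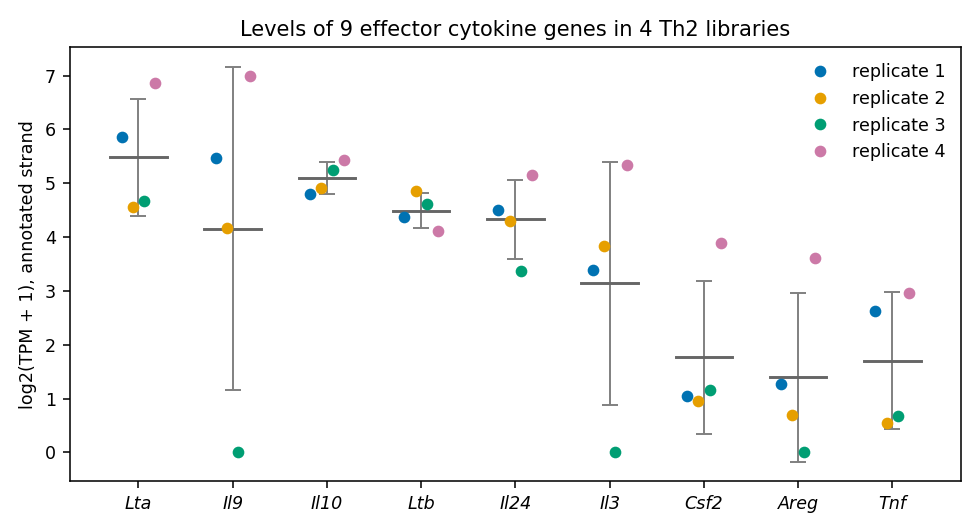
Level of each of the 9 cytokine genes on the log2(TPM + 1) scale, from counts on the annotated strand, with genes in falling order of mean TPM. Points are the 4 replicate libraries, wide lines their mean and bars the SD. Il10 and Ltb have the narrowest spread, while Il9, Il3 and Areg reach 0 in replicate 3.

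Lymphotoxin alpha, a secreted TNF family cytokine that also pairs with lymphotoxin beta at the cell surface, had the highest mean level of the set. Lta (chr17:35203165-35205351, mm10, minus strand, 4 exons) had 92, 41, 34 and 129 counts in replicates 1 to 4, or 56.8, 22.5, 24.4 and 115 TPM. Its mean was 54.7 ± 43.2 TPM (SD, n = 4), with replicates 1 and 4 above replicates 2 and 3. Without replicate 4 the mean was 34.6 TPM. Tnf, the gene of the inflammatory cytokine TNF, lies 1157 bp from Lta on the same strand (chr17:35199381-35202007) and had only 10, 1, 1 and 9 counts, or 5.21, 0.462, 0.606 and 6.77 TPM. The libraries high for Tnf were again replicates 1 and 4, with a mean of 3.26 ± 3.22 TPM that was 2.09 TPM without replicate 4. Ltb, which encodes the membrane-bound partner of lymphotoxin alpha (chr17:35194439-35196320, plus strand, 3060 bp beyond Tnf), had 35, 56, 36 and 20 counts, or 19.7, 28.0, 23.6 and 16.3 TPM. Ltb thus ran the other way, with replicate 2 the highest and replicate 4 the lowest, and its mean was 21.9 ± 5.05 TPM.

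Within each library Lta was above Tnf. The difference on the log2(TPM + 1) scale was 3.22, 4.00, 3.98 and 3.90 in replicates 1 to 4, a mean of 3.78 ± 0.37 (SD, n = 4), and was positive in 4 of 4 libraries. With Tnf at 1 count in replicates 2 and 3, its size and spread depend on the 1 added to TPM. With 0.1 added instead, the mean was 4.48. Tnf was below Ltb in 4 of 4 libraries, by a mean difference of -2.78 ± 1.57, which spanned -4.31 in replicate 2 to -1.15 in replicate 4. For both pairs the exact two-sided sign-flip permutation p was 0.13, the smallest that 4 libraries allow, and 0.208 after Benjamini-Hochberg adjustment over the 5 pairs of one locus, so no pair can reach 0.05. The order of Lta and Ltb was not fixed: their difference was 1.48, -0.31, 0.05 and 2.75 in replicates 1 to 4, positive in 3 of 4, with a mean of 0.99 ± 1.402 and an exact p of 0.375 (adjusted 0.375). Without replicate 4 that mean was 0.41.

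**Figure D2:**
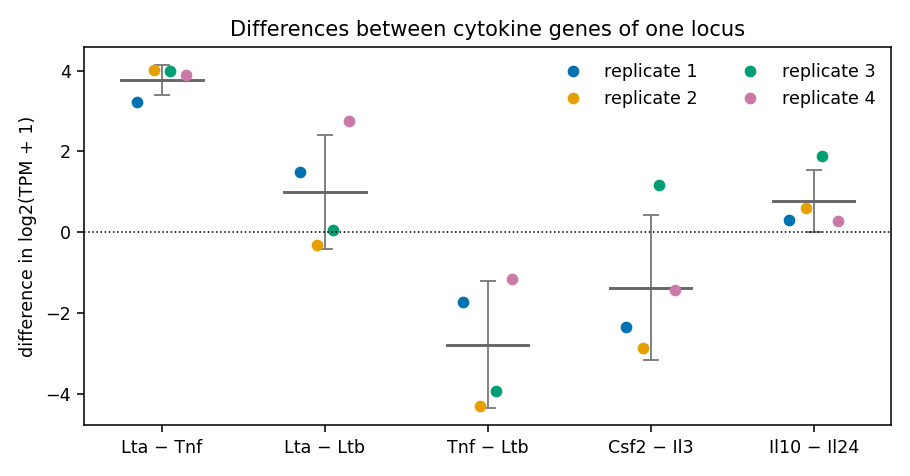
Difference between cytokine genes of one locus, first gene minus second, on the log2(TPM + 1) scale. Points are the 4 replicate libraries, wide lines their mean and bars the SD, and the dotted line marks no difference. Lta lies above Tnf by 3.22 to 4.00 in every library, while Lta minus Ltb runs from -0.31 to 2.75.

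Several of the 9 genes carry AU-rich elements in the 3′ untranslated region (UTR). Such elements, built from repeats of ATTTA, are bound by decay factors such as tristetraprolin (Zfp36), which recognises the nonamer TTATTTATT and shortens the life of cytokine mRNA. In the transcripts of the GENCODE M21 annotation, Csf2 had 9 copies of ATTTA in its 317 bp 3′ UTR and Tnf 8 in 764 bp, overlapping copies counted. Il10 had 6 in 706 bp, Il24 4 in 381 bp, Areg 4 in 253 bp, Lta 3 in 572 bp, Il9 3 in 86 bp and Il3 1 in 101 bp, and Ltb had none in 174 bp. Per kb of 3′ UTR the copies were densest in Il9 (34.9) and Csf2 (28.4), followed by Areg (15.8), Il24 (10.5), Tnf (10.5), Il3 (9.90), Il10 (8.50) and Lta (5.24). Il9 and Csf2, the densest, had mean levels of 46.6 and 4.28 TPM. The nonamer occurred 5 times in Tnf, 4 times in Csf2, once each in Lta and Areg and not in the others. That is 4 of the 9 genes, against 7.72% of 20831 protein-coding genes and 2.13% of the 8862 with a 3′ UTR of at most 764 bp. At least 3 copies of ATTTA were found in 7 of the 9, against 36.0% and 6.08% of the same gene sets. The richest stretch of 30 bases is shown for 3 of the 4 genes with the nonamer, to set the runs of overlapping repeats in Csf2 and Tnf, which have the most copies, beside the separate ones in Lta, the neighbour of Tnf. Capitals mark ATTTA, read 5′ to 3′ on the gene's strand, minus in all 3 (mm10), at chr17:35199679-35199708 for Tnf, chr11:54247329-54247358 for Csf2 and chr17:35203408-35203437 for Lta.
Tnf: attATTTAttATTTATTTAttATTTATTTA
Csf2: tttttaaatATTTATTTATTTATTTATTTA
Lta: tATTTAtggagagaaaagttaagttATTTA
A match of these letters is a description, and whether the repeats bear on the counts was not tested.

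IL-9 is the cytokine that names the Th9 fate and is also made by Th2 cells. Of the 5 genes that averaged 10 counts or more, Il9 had the largest SD relative to its mean (120%, in TPM). Its value was again the largest (92.9%, in CPM) when libraries were scaled to the counts of genes with no opposite exon. The 2 values differ in unit as well as in scaling. Il9 (chr13:56479277-56482246, minus strand, 5 exons) had 27, 12, 0 and 55 counts in replicates 1 to 4, or 43.0, 17.0, 0 and 127 TPM. Replicate 4 was the highest and replicate 3 had none, where 0 counts allow up to 2.07 CPM, against 43.2 CPM in replicate 4. The mean was 46.6 ± 56.1 TPM (SD, n = 4), or 20.003 TPM without replicate 4. The SD exceeded the mean.

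Il9 and Lta were both highest in replicate 4 and next in replicate 1, under both scalings of the libraries. So were Tnf and Areg, which makes 4 of the 9 genes, though the second place of Areg rests on 2 counts against 1. Replicate 4 was the highest for 47.4% of 7752 genes in TPM per all counts and for 38.7% of 3827 in CPM on the other scaling. How many of these had replicate 1 next was not counted. The promoters of Il9 and Lta are shown because these are the well counted genes of the 4 cytokine genes. RefSeq (GRCm38.p6) gave promoter sequences for 7 of the 9 genes, all but Il10 and Il24. In the 250 bases before the RefSeq start, GGAAA, the core bound by NFAT, occurred on either strand in 7 of 7, against 55.6% of 32851 promoters. The AP-1 site TGANTCA occurred in 1 of 7, at -140 in Il9, against 6.75% of promoters. TATAAA occurred in 3 of 7, at -31 in Areg, -29 in Tnf and -167 in Lta, against 12.4%. The kappa B pattern GGGNNNNNCC occurred in 6 of 7, against 45.8%, and GATAA, the core bound by GATA factors, in 2 of 7 (Csf2 and Il3), against 22.6%. These searches covered both strands, a motif may overlap another, and the start used for Csf2 lies 232 bp and that for Ltb 68 bp from the start in the count files. Capitals mark GGAAA or its reverse complement TTTCC, the AP-1 site and TATAAA, on the minus strand of chr13:56482258-56482507 for Il9 and chr17:35205352-35205601 for Lta.
Il9: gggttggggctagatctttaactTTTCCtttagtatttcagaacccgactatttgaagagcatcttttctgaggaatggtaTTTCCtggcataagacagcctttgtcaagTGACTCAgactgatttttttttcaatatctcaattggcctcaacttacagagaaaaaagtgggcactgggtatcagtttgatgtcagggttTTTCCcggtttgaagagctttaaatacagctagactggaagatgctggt
Lta: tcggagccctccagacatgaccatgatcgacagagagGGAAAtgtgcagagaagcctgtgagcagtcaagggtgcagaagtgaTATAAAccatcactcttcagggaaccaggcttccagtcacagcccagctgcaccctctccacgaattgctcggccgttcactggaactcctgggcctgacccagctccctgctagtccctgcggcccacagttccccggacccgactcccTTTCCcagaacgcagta
Il9 thus carried 3 copies of the NFAT core and the AP-1 site, and Lta 2 copies of the core and no AP-1 letters in this window. Whether any of these motifs bears on the counts was not tested.

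IL-10 is the cytokine with which T cells restrain inflammation. Il10 had the smallest SD relative to its mean in TPM per all counts (21.5%). In CPM scaled to the counts of genes with no opposite exon it did not (44.0%, against 34.6% for Il24). These values differ in unit as well as in scaling. In TPM over genes with no opposite exon, replicates 1 to 4 had 190, 317, 393 and 267 for Il10. Il24 had 153, 204, 98.5 and 219 on that scale. Il10 (chr1:131019845-131024974, plus strand, 5 exons) had 41, 50, 49 and 45 counts in replicates 1 to 4, or 26.7, 28.9, 37.1 and 42.4 TPM. The 95% Poisson intervals of its CPM overlapped between all 4 libraries, and the mean was 33.8 ± 7.26 TPM (SD, n = 4). Il24 (chr1:130882074-130887454, minus strand, 6 exons), of the same cytokine family and 132390 bp away, had 35, 34, 13 and 39 counts, or 21.6, 18.6, 9.31 and 34.7 TPM. Replicate 3 was the low library for Il24, whose mean was 21.05 ± 10.5 TPM. Il10 was above Il24 in 4 of 4 libraries, with a difference of 0.30, 0.61, 1.89 and 0.28 in log2(TPM + 1) in replicates 1 to 4 and a mean of 0.77 ± 0.76 (exact sign-flip p = 0.13, adjusted 0.208 over 5 pairs). Without replicate 3, the widest of the 4, the mean difference was 0.40.

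The haematopoietic growth factor genes Il3 and Csf2 were counted far less. Il3 (chr11:54265303-54267277, minus strand, 5 exons), whose product expands basophils and mast cells, had 7, 11, 0 and 20 counts in replicates 1 to 4, or 9.51, 13.3, 0 and 39.2 TPM. Replicate 4 was again high and replicate 3 empty, and the mean of 15.5 ± 16.8 TPM was 7.59 TPM without replicate 4. Csf2 (chr11:54247271-54249667, minus strand, 4 exons), the GM-CSF gene 15635 bp from Il3, had 1, 1, 1 and 9 counts, or 1.07, 0.947, 1.24 and 13.9 TPM. Its mean of 4.28 ± 6.40 TPM rested on replicate 4, without which it was 1.09 TPM. Csf2 was below Il3 in 3 of 4 libraries, by -2.35, -2.87 and -1.43 in replicates 1, 2 and 4, and above it by 1.16 in replicate 3, where it had 1 count and Il3 none. The mean difference of -1.37 ± 1.79 was smaller than its SD (exact sign-flip p = 0.25, adjusted 0.312), and it was -2.22 without replicate 3.

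Csf2 was the only 1 of the 9 genes with an annotated gene on the opposite strand, counted over exons or over whole gene bodies. Gm12223, an antisense noncoding gene (chr11:54247600-54254495, plus strand, 3 exons), shares 96 bp of exon with the last exon of Csf2, all of it coding sequence for GM-CSF. Csf2, with 1, 1, 1 and 9 counts in replicates 1 to 4, stood against 539, 621, 341 and 400 counts of Gm12223. Csf2 thus held 0.185% (95% Wilson interval 0.0327 to 1.04), 0.161% (0.0284 to 0.905), 0.292% (0.0516 to 1.64) and 2.20% (1.16 to 4.13) of the pair's summed counts. Per kb of exon, Csf2 had 15 counts over the 4 libraries and Gm12223 3600, a ratio of 240 for Gm12223 over Csf2. Without replicate 4 the share of Csf2 over all libraries was 0.199%, against 0.627% with it. Counts per strand cannot tell which of these fragments came from Csf2 mRNA. The shared exon is shown because every fragment that lies within it is assigned by strand alone. It reads as follows on the Csf2 strand (minus, chr11:54247600-54247695, mm10), in lower case because no part of it is singled out.
Csf2 and Gm12223: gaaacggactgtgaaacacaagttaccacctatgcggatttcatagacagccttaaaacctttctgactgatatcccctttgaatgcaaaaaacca
At the 8 other genes no annotated gene lies opposite, so fragments from the other strand there enter no gene count, and a low count of Tnf or Areg cannot be set against such a partner.

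**Figure D3:**
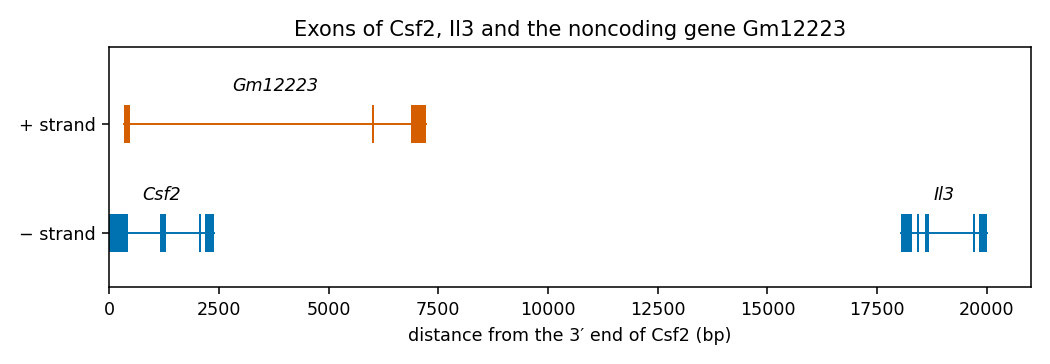
Exons (boxes) and introns (lines) of Csf2, Il3 and the noncoding gene Gm12223 by strand, with distance in bp from the 3′ end of Csf2. The first exon of Gm12223 lies opposite the last exon of Csf2 over 96 bp, and Il3 lies 15635 bp beyond Csf2 with no gene opposite.

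Amphiregulin had the fewest counts but for Csf2. Areg (chr5:91139599-91148432, plus strand, 6 exons) had 2, 1, 0 and 11 counts in replicates 1 to 4, or 1.41, 0.624, 0 and 11.2 TPM. Replicate 4 held 11 of the 14 counts, and the mean of 3.30 ± 5.28 TPM was 0.677 TPM without it. At this depth an Areg level in replicates 1 to 3 was not distinguishable from the limit that a count of 0 allows.

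The order of the 9 mean levels held only in part. Of the 8 pairs of neighbours in the order, only Il10 above Ltb differed by more than its SD, with a mean of 0.61 ± 0.54 in log2(TPM + 1) and 4 of 4 libraries positive (exact sign-flip p = 0.13, adjusted 0.40 over 8 pairs). Lta minus Il9 was 1.33 ± 2.24, Il9 minus Il10 -0.94 ± 3.03, Ltb minus Il24 0.16 ± 0.98, Il24 minus Il3 1.19 ± 1.54, Il3 minus Csf2 1.37 ± 1.79, Csf2 minus Areg 0.37 ± 0.58 and Areg minus Tnf -0.31 ± 0.89. None of these had the same sign in all 4 libraries. The mean of Il9 minus Il10 is negative while the mean TPM of Il9 is the higher, because replicate 3 had 0 counts of Il9. The leading gene was Lta in replicate 1, Il10 in replicates 2 and 3 and Il9 in replicate 4. With TPM taken over genes with no opposite exon the order of the means was the same except that Tnf (22.8) stood above Areg (21.8).

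The make-up of the cytokine counts differed accordingly. Lta was 36.8% (95% Wilson interval 31.1 to 42.9), 19.8% (14.9 to 25.8), 25.4% (18.8 to 33.4) and 38.3% (33.2 to 43.6) of the 9 genes' summed counts in replicates 1 to 4. Il10 was 16.4%, 24.2%, 36.6% and 13.4% of them, with intervals of 28.9 to 45.0 in replicate 3 and 10.1 to 17.4 in replicate 4 that did not overlap. Ltb was 14%, 27.05%, 26.9% and 5.93%, and Il9 10.8%, 5.80%, 0% and 16.3%, where 0 of 134 counts has an upper bound of 2.79%. Lta and Il9 thus took more, and Il10 and Ltb less, of the counts in replicates 1 and 4 than in replicates 2 and 3. These shares do not depend on how the libraries are scaled.

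**Figure D4:**
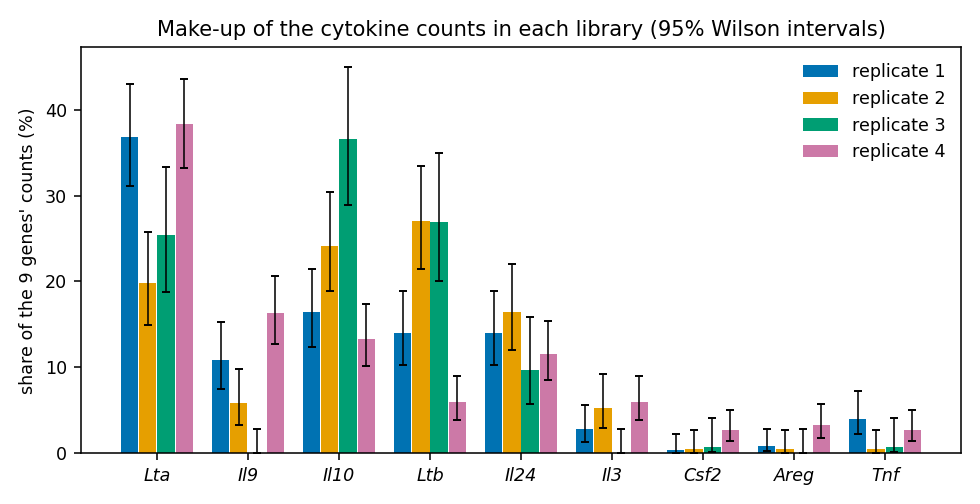
Share of each gene in the summed counts of the 9 cytokine genes, in percent, for replicates 1 to 4, with 95% Wilson intervals that cover counting error only. Il10 makes up 36.6% of replicate 3 and 13.4% of replicate 4, while Lta makes up 25.4% and 38.3%.

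Whether the libraries differed by more than counting error was tested on the 5 genes that averaged 10 or more counts (Il9, Il10, Il24, Lta and Ltb). Csf2, Areg, Tnf and Il3, with means of 3, 3.5, 5.25 and 9.5 counts, did not pass that filter. With a chi-square test against Poisson sampling and Benjamini-Hochberg adjustment over 7752 genes, 4 of the 5 varied at 0.05, against a background of 88.2% of all genes tested. The share of the cytokine genes was thus near that of genes in general. Lta (adjusted p = 2.14e-15) and Il9 (6.72e-15) were far past the threshold, Ltb (0.000245) and Il24 (0.0216) were past it, and Il10 was not (0.0638). Among 3508 genes of 10 to 100 mean counts with no opposite exon, of which 87.3% were called, the variance over Poisson of Lta was above that of 91.8% and of Il9 above 91.1%. Ltb stood above 39.9%, Il24 above 16.8% and Il10 above 11.6% of them. Without replicate 3 or without replicate 4, Il24 lost its call (adjusted p = 0.336 and 0.0877). Il10 gained a call with median-of-ratios size factors (0.0192), without replicate 2 (0.0331) and without replicate 4 (0.0288). With no filter on low counts, 8 of the 9 genes varied, all but Il10, against 70.3% of 16612 genes.

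Scaling, and for Il24 also the unit, decided which library was the highest for some of the genes. In TPM per all counts, replicate 4 was the highest for 4 of the 5 genes that averaged 10 or more counts. The background was 47.4% of the 7752 genes with such a mean and 61.0% of the 3827 of these with no opposite exon. The exception was Ltb, highest in replicate 2. Replicate 4 was also the highest for the 4 genes below that filter, 8 of the 9 in all, for which these backgrounds do not hold. Libraries were also scaled to the counts of genes with no opposite exon, a choice made after the data were seen. In CPM on that scale, replicate 4 was the highest for 2 of the 5 (Il9 and Lta). The background was 38.7% of the 3827 genes, so the share was near it. Replicate 4 was the highest for 6 of all 9, and Il24 was then highest in replicate 2 and Il10 in replicate 3. In TPM over genes with no opposite exon, Il24 stayed highest in replicate 4, with 219 TPM against 204 in replicate 2. Il10 was again highest in replicate 3. The scaling in CPM moved the libraries by -0.37, 0.57, 0.47 and -0.67 on the log2 scale in replicates 1 to 4, relative to their mean. On it Il10 had 140, 315, 371 and 175 CPM and Ltb 120, 353, 272 and 77.9 CPM. Both were then lower in replicates 1 and 4 than in replicates 2 and 3, the reverse of Lta, which had 315, 258, 257 and 503 CPM. The chi-square test on that scale called 5 of the 5 genes, Il10 included (adjusted p = 2.88e-06), against 80.7% of 3827 genes. In CPM, only Lta, Il9, Tnf, Csf2, Il3 and Areg kept replicate 4, and Ltb replicate 2, as the highest library under both scalings. In TPM, Il24 kept replicate 4 as well.

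**Figure D5:**
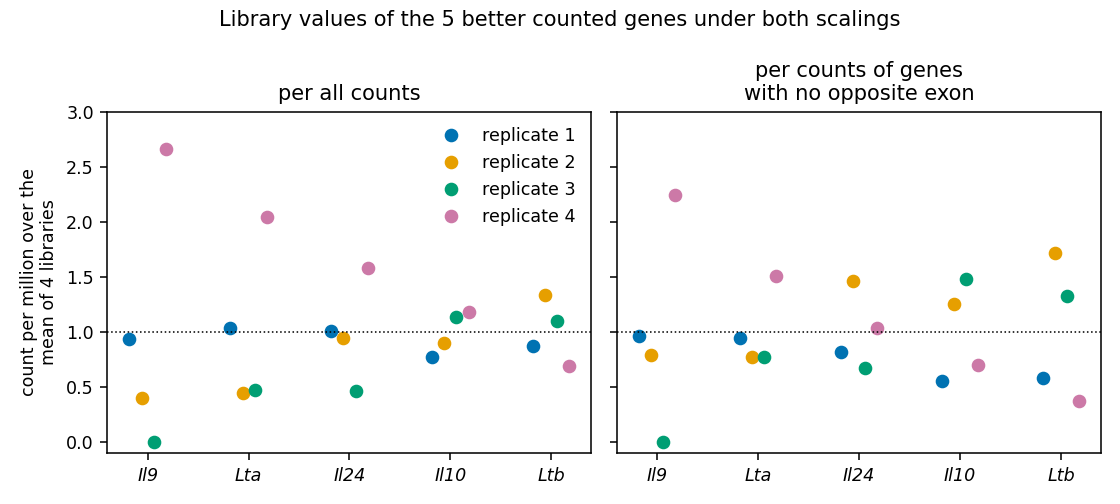
CPM of the 5 genes that averaged 10 or more counts, divided by the gene's mean over the 4 libraries, per all counts (left) and per counts of genes with no opposite exon (right). Replicate 4 is highest for Il9 and Lta and lowest for Ltb in both panels, while for Il24 and Il10 it is highest on the left only, with replicate 2 and replicate 3 highest on the right.

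Per all counts, the summed T cell markers were also highest in replicate 4 and next in replicate 1. For Cd3e alone, with 19, 17, 22 and 32 counts in replicates 1 to 4, replicate 3 was next. Replicate 4 was likewise the highest for 47.4% of the 7752 genes in TPM. Genes with no opposite exon held 292314 counts in replicate 1 and 158636 in replicate 2. The place of replicate 1 above replicate 2 therefore need not hold when libraries are scaled to those counts. The summed counts of the 5 markers were 295, 163, 66 and 385 in replicates 1 to 4, a range of 45.6 to 302 CPM, and the B cell gene Cd79a had 35, 41, 9 and 2 counts and the macrophage gene Cd68 16, 11, 33 and 0. Their part in the differences between libraries was not tested. When each library was set against the other 3 with edgeR's quasi-likelihood test, 0 of the 5 genes were called in replicate 1 (background 0% of 7752 genes), replicate 2 (0.0129%), replicate 3 (0.0387%) or replicate 4 (0%). At an unadjusted p under 0.05, edgeR had 1 gene in replicate 3 (Il9) and 1 in replicate 4 (Lta), and DESeq2 1 in replicate 3 and 0 in the others, with 0 called after adjustment. The smallest adjusted p in edgeR was 0.352 in replicate 3 and 0.556 in replicate 4. These tests compare libraries, not conditions, and with 1 library on one side they reach only very large differences, as tried on simulated counts, so 0 calls do not show that the libraries were alike.

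For each of the 5 genes the 2 nearest patterns were found among 7751 other genes by the distance between centred log2 CPM over the 4 libraries. Lta lay nearest to Sucla2 (distance 0.0160; 15, 6, 5 and 22 counts) and to the chaperone gene Hsp90aa1 (0.0441; 383, 171, 144 and 550 counts). Il9 lay nearest to Aqr (0.192) and Ythdf3 (0.195), both also at 0 in replicate 3. Il10 lay nearest to Tbce (0.0506) and Vmp1 (0.0605), Il24 to Mtmr1 (0.0443) and Gm26707 (0.108), and Ltb to Gm14493 (0.0496) and Gm45444 (0.0617). None of the nearest patterns was another of the cytokine genes. These are so few among the 7751 candidates that their absence does not bear on whether they share a pattern. With 4 libraries that share depth and make-up, such nearness is a description of these counts.

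The genes around the cytokines were measured through 4 lists. Of 16 receptor genes for these cytokines, 7 had a mean of at least 1 TPM, against 38.5% of protein-coding genes, and the median was 0.497 TPM. The highest were Il2rg, the common gamma chain used by the IL-9 receptor, at 8.33 ± 9.95 TPM (SD, n = 4), Il10ra, the IL-10 binding chain, at 6.77 ± 3.74, Tnfrsf1b, a receptor of TNF and lymphotoxin alpha, at 2.65 ± 3.18, and Il20rb, a chain of the IL-24 receptor, at 2.41 ± 1.75. At 0 counts in all 4 libraries were 3 (Csf2rb, Il20ra and Il22ra1, named after their values were seen), among them the beta chain of the GM-CSF receptor.

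Of 23 genes that regulate or process these cytokines, 17 reached 1 TPM, against 38.5% of protein-coding genes, and the median was 3.53 TPM. An opposite exon was present in 10 of the 23. The list was chosen with earlier results of these data known, so the share is only a description. Irf4, a factor needed for IL-9 and other effector cytokines, had 157 ± 27.0 TPM and its AP-1 family partner Batf 87.5 ± 38.0 TPM. Junb, another AP-1 gene, had 145 ± 53.1 TPM, and Adam17, the protease that sheds TNF and amphiregulin, 34.7 ± 7.78 TPM, but these 2 share 173 and 97 bp of exon with a gene on the other strand. Prdm1 and Spi1 were at 0, named after their values were seen.

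Of 25 other cytokine genes, 14 reached 1 TPM, against 38.5% of protein-coding genes. The median of the 25 was 3.39 TPM, against 21.05 TPM for the 9. Both sets were chosen with earlier results of these data known, so the difference in medians is only a description. Besides Il13 and Il4, the highest were Il21 at 428 ± 32.2 TPM, with 469 bp of exon opposite another gene, and Lif at 22.4 ± 19.5 TPM. At 0 counts were 5 (Il17a, Il31, Ccl1, Ccl3 and Xcl1, named after their values were seen). Of 16 family members and locus neighbours, 6 reached 1 TPM, against 38.5% of protein-coding genes. Of the 16, 7 were at 0, and the median was 0.404 TPM. Nfkbil1 and Lst1, both near Lta, had 27.8 ± 9.02 and 18.8 ± 22.6 TPM. Mapkapk2 and Fcmr, both by the locus of Il10 and Il24 on chromosome 1, had 27.2 ± 13.8 and 2.87 ± 4.31 TPM. Nfkbil1 shares 144 bp of exon with a gene on the other strand.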

How the data were processed

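Gene expression was measured by RNA-seq in 4 libraries of 1 group. The authors' deposited values are raw fragment counts per gene. Per the file headers, featureCounts v1.4.6-p4 made them from STAR alignments to mm10 with GENCODE M13 genes, counting paired fragments over exons with both ends mapped and the strand option set to 1. If the library's strand is the other one, most mRNA fragments of a gene are left out, so values are read as counts on the annotated strand. No version of STAR is named in the sources used here.

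Symbols came from GENCODE M21 by gene identifier (50376 of 50600 matched). TPM was computed from the counts and the deposited exon lengths, and CPM from each library's total. An opposite exon is at least 1 bp of exon shared with a gene on the other strand (bedtools 2.31.1), and 42411 genes had none. Differences within a library were taken on the log2(TPM + 1) scale, which understates the change of low genes, and the exact permutation test was a two-sided sign flip over libraries. Spread between libraries was tested in genes averaging 10 or more counts with a chi-square test of Poisson sampling (library sizes scaled by TMM), and with the quasi-likelihood test of edgeR 4.0.16 for each library against the other 3, with DESeq2 1.42.0 as the alternative. Benjamini-Hochberg adjustment ran over all genes tested, at 0.05. R 4.3.3 and Python 3.11.15 were used, and both tests were tested on simulated data. TMM moved the libraries by 0.12, -0.24, -0.13 and 0.25 on the log2 scale, and the biological coefficient of variation was 0.574.

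Named genes are the 9 cytokine genes, any gene opposite their exons, Il4, Il5 and Il13 for scale, the 2 nearest patterns of each well counted gene and the 4 highest of each list. The 9 genes and the lists were chosen with earlier results of these data known. Alternatives were FPKM, TPM over genes with no opposite exon, a pseudocount of 0.1, median-of-ratios size factors, every gene with a count, whole gene bodies for the opposite strand, a list threshold of 5 TPM and leaving out each library.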

Additional observations from a re-analysis of the deposited data

Results flagged for a closer look

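Of 22 sets of 4 library values, 4 had 1 library set apart from the other 3 by a gap, as a share of the whole range, above Dixon's 95% critical value. Chance gives about 1 in 20 such sets where values are normally distributed and the sets independent. Low counts and differences that share genes do not meet this, so the 4 of 22 cannot be set against that rate. For Csf2 the gap share was 0.977, with 13.9 TPM in replicate 4 and 0.947 to 1.24 TPM in the others. For Areg it was 0.874, with 11.2 TPM in replicate 4 and 0 to 1.41 TPM in the others. Both rest on 9 and 11 counts. Replicate 1 had the lowest difference of Lta minus Tnf, 3.22 against 3.90 to 4.00 on the log2(TPM + 1) scale (gap share 0.867). Tnf had 1 count in replicate 2 and 1 in replicate 3, so the added 1 holds down the differences there. This gap therefore depends on the pseudocount. Replicate 3, with 0 counts of Il9, had the highest difference of Lta minus Il9, 4.67 against -0.14 to 0.39 (gap share 0.890).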

How the results depend on the processing

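The 5 locus differences kept their direction under log2(TPM + 0.1), FPKM and each left-out library. Among the 8 neighbours in the order of levels, 3 turned round: with a library left out, Il9 minus Il10 ran from -1.77 (without replicate 4) to 0.50 (without replicate 3), Ltb minus Il24 from -0.20 (without replicate 3) to 0.57 (without replicate 4) and Areg minus Tnf from -0.63 (without replicate 4) to 0.038 (without replicate 1). With no filter on low counts 8 of the cytokine genes varied beyond Poisson sampling, against 4 with it, and leaving out a library gave 3 to 5. At a mean of at least 5 TPM the lists held 2 receptor, 11 regulator and 3 family or neighbour genes. TPM over genes with no opposite exon raised every level, to 409 for Lta, 323 for Il9, 292 for Il10 and 22.8 for Tnf, since it divides by a smaller total. FPKM lowered every level, among them to 35.9 for Lta, 30.2 for Il9, 22.7 for Il10, 14.9 for Ltb and 14.0 for Il24. The test of 1 library against the other 3, which reaches only very large differences, gave 0 calls with each tool and setting run and so says nothing about stability. No paired analysis was possible because all libraries belong to 1 group. Depth limits Tnf, Csf2, Areg and Il3, with 12 to 38 counts over the 4 libraries. Counts cover the annotated strand only, and 4 libraries cannot give a sign-flip p under 0.13.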

Other observations

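MicroRNA genes are annotated inside Ltb and Lta on the same strand. Mir6973a, within Ltb, had 1, 2, 4 and 0 counts in replicates 1 to 4, and Mir6974, within Lta, had 0 in all 4. Among the 5 well counted cytokine genes, the nearest pair in library pattern was Il10 and Ltb (distance 0.924), although 31.7% of 7751 genes lay nearer to Il10 than Ltb did. The farthest were Il9 and Ltb (4.59), with 83.9% of genes nearer to Il9.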
